A study of Mus musculus with 4 samples.

Results

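Dusp2, Dusp4, Dusp5, Dusp6, Dusp10, Spry1, Spry2, Spry4, Spred1 and Spred2 encode negative regulators of MAP kinase signaling, and they were followed here in mouse Beko cells upon washout of a Notch inhibitor. These 10 genes were chosen by name from the 24391 genes of the count table, with earlier results of these data known. They are some of the dual-specificity phosphatase, Sprouty and Spred genes, grouped here as ERK feedback genes, although Dusp10 acts mainly on JNK and p38. Of the 10 genes, 7 had enough reads to be tested, whereas Spry2, Spry4 and Spred1 did not. Beko is a mouse progenitor T-cell line with active Notch signaling, and all libraries come from this 1 line. The comparison was between 2 RNA-Seq libraries of cells treated for 48 h with the γ-secretase inhibitor (GSI) DAPT, which blocks the release of the active Notch intracellular domain, and 2 libraries of cells that had the same 48 h of GSI, were washed, and were cultured for another 24 h. The labels of the libraries give the GSI dose as 10 mg/ml, whereas the study's methods give the same number in μg/ml, and the methods state that fresh inhibitor was added after 24 h. The comparison asks which genes respond when Notch activity returns. Since the washed cells were also handled and cultured for longer, with no cells washed in the same way but kept in GSI among the libraries analyzed, return of Notch activity and further culture cannot be told apart.

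ERK is the last kinase of the Ras, Raf, MEK and ERK cascade, which carries signals from growth factor receptors and, in developing T cells, from the pre-T-cell receptor. Active ERK switches on transcription of its own inhibitors. Dual-specificity MAP kinase phosphatases, encoded by Dusp genes, remove the activating phosphates from ERK, JNK or p38, whereas Sprouty and Spred proteins act upstream, between the receptor and Raf. The transcript levels of several of these genes are therefore widely used as a readout of ERK activity, although transcript levels alone do not measure it.

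Of the members tested, 3 fell upon washout past both thresholds used here, which were 0.05 for the adjusted p-value and 1 for the size of the log2 fold change. They were Dusp6, Dusp5 and Dusp2, whereas 0 of 7 rose past both, in edgeR's quasi-likelihood test as well as in DESeq2, and 1 rose at an unadjusted p under 0.05. Over all 12266 genes tested, 11.7% fell and 7.74% rose past both thresholds. With the adjusted p-value alone, 4 of 7 fell, with Spry1 as the fourth, and 1 rose, Dusp10. The background of that count is high, as 25.4% of all genes tested fell and 27.0% rose by the adjusted p-value alone, so the single rise among 7 is no more than the background. Dusp4 and Spred2 did not pass the test in either direction. The median log2 fold change (washout against GSI) of the tested members was -0.82, compared with -0.01 over all genes tested. Since the members were chosen with earlier results of these data known, these counts and this median are not independent evidence of a direction.

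For the members that fell, the 250 bases upstream of the RefSeq start of the gene (GRCm38.p6, plus strand) are shown, since they hold the sequence next to which transcription begins. They are chr10:99262981-99263230 for Dusp6, chr19:53528895-53529144 for Dusp5, chr2:127335909-127336158 for Dusp2 and chr3:37639697-37639946 for Spry1, each outside the annotated transcript and written 5′ to 3′. Capitals mark matches, on either strand, to 1 of 5 motifs.
Dusp6: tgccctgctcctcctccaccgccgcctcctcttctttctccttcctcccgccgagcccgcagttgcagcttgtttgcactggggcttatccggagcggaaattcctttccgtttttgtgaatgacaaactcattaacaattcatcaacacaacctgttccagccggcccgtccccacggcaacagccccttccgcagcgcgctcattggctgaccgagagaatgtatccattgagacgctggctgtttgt
Dusp5: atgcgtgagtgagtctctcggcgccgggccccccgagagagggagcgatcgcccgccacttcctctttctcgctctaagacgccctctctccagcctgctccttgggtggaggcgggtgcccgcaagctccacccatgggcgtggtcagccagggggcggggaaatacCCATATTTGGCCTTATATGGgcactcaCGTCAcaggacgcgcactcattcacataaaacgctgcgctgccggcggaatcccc
Dusp2: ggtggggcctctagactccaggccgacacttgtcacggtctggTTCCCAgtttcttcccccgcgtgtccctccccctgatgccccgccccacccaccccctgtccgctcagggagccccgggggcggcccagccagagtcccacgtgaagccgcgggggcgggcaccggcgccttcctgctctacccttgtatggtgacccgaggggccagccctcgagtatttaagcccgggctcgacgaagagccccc
Spry1: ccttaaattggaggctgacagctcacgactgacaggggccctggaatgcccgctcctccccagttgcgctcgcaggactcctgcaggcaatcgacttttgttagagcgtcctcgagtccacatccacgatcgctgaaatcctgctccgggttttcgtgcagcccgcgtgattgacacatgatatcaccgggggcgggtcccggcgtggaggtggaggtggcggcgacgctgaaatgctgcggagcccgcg
The motifs searched were TGGGAA for RBPJ, the DNA-binding factor of the Notch pathway, CCGGAA for ETS factors, which ERK phosphorylates, TGANTCA for AP-1, TGACG as the core of a cAMP response element, and the CArG box, which is bound by serum response factor.

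In Dusp5 the capitals show 2 CArG boxes side by side, from -82 to -73 and from -72 to -63 relative to the start (the base before the start being -1), and a TGACG match on the minus strand from -55 to -51. At least 1 CArG box was present in 1.467% of the 32851 RefSeq upstream windows of this length. Windows with 2 or more of them made up 0.018%, which are 6 windows of 5 genes, among them Srf, the gene of serum response factor itself. The capitals in Dusp2 mark the RBPJ motif on the minus strand, from -207 to -202, a motif that 21.594% of all windows hold. Dusp6 and Spry1 have no capitals, since none of the 5 motifs occurs in these 250 bases. Across the 8 members with a sequence in the table (all but Dusp4 and Spry4), the only other matches were in Spred2, with TGGGAA from -59 to -54 and TGACG on the minus strand from -51 to -47. For RBPJ only TGGGAA was searched, and not the TGAGAA form that the paper also reports at sites losing RBPJ upon GSI. TGACG occurs in 17.765%, CCGGAA in 12.03% and TGANTCA in 6.749% of all windows, and no 2 of the matches in members overlapped each other. The motifs were chosen after the sequences were read, so the shares over all windows do not measure how unusual a match in a member is. These matches describe the letters of the windows and do not show binding.

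The deposited counts came to between 13716199 and 36364200 per library, with replicate 1 the deeper library in both conditions. On the log2 scale, CPM (counts scaled to library size and TMM factor) had a correlation of 0.990 within GSI, 0.988 within washout and 0.935 to 0.947 across conditions. A count of 3, taken as the limit of detection, corresponds to 0.0881 to 0.223 CPM. The labels do not say whether the replicates came from separate cultures, so p-values measure the spread between these libraries only. All 8 T-lineage markers checked were detected, with a summed level of 4079 and 4003 CPM under GSI and 3135 and 3166 CPM upon washout. They did not move together. By the adjusted p-value alone Cd3g rose (log2 fold change 0.86), while Tcf7 (-0.87), Cd247 (-0.73), Bcl11b (-0.72) and Thy1 (-0.58) fell. Cd3d, Cd3e and Lck had no call. As a check of the treatment, 8 of 9 Notch pathway genes were upregulated past both thresholds upon washout, with a median log2 fold change of 2.37. They were Hey1 (3.47), Dtx1 (3.20), Il2ra (3.19), Gm266 (2.86), Ptcra (2.37), Hes1 (1.42), Nrarp (1.31) and Notch1 (1.14), while the log2 fold change of Notch3 was 0.14. Notch3 was -0.06 when counts were scaled to the total alone, -0.05 without GSI replicate 1, and 0.70 with offsets for GC content and length (adjusted p = 0.0032, quasi-likelihood test of edgeR). The call of Hes1 was lost with DESeq2 (adjusted p = 0.0715), and leaving out GSI replicate 1 or 2 changed its log2 fold change to 2.41 or 0.90, respectively. Notch1 was under the fold threshold with total-count scaling (0.94) and without GSI replicate 1 (0.98), and at 1.79 with the offsets. The exons of Notch1 and of Notch3 overlap those of genes on the other strand. When libraries were scaled to the total count alone, the median of all genes tested shifted to -0.21 and the share of upregulated genes among those past both thresholds went from 39.8% to 23.0%. With the offsets for GC content and length, the median was 0.08 and this share 47.7% (984 higher and 1077 lower), so small changes are read against these shifts.

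**Figure D1:**
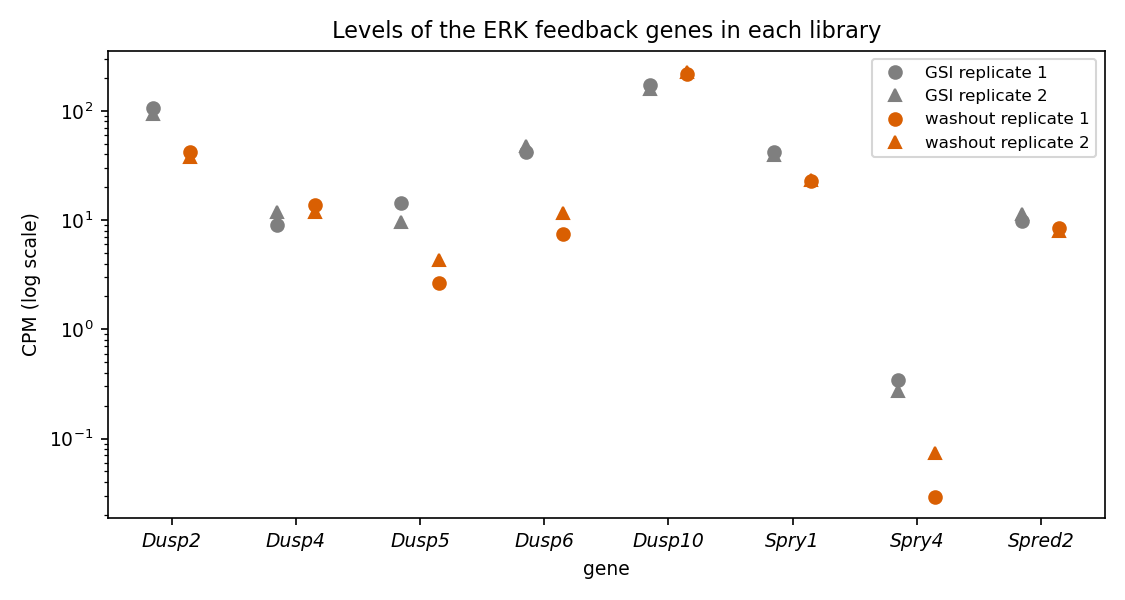
Levels of 8 ERK feedback genes in CPM (scaled counts, log axis), with 1 point per library, gray for GSI and orange for washout, circles for replicate 1 and triangles for replicate 2. Dusp2, Dusp5, Dusp6 and Spry1 are lower in both washout libraries, Dusp10 is higher in both, and Spry4 lies under 1 CPM in every library, while Spry2 and Spred1 are not drawn because nearly all their counts are 0.

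Dusp6 encodes the cytoplasmic phosphatase that is highly selective for ERK, and its transcript is a commonly used reporter of ERK output. It had 41.7 and 47.4 CPM in GSI replicates 1 and 2, and 7.52 and 11.5 CPM in washout replicates 1 and 2. Both washout libraries were far below both GSI libraries, on 256 and 155 counts compared with 1333 and 691. This is a mean of 44.5 ± 4.03 CPM (SD, n = 2) in GSI and 9.53 ± 2.84 CPM (SD, n = 2) upon washout. Dusp6 fell by 2.26 on the log2 scale (standard error 0.212, adjusted p = 0.000582, edgeR's quasi-likelihood test with p-values adjusted by Benjamini-Hochberg over all genes tested), the strongest decrease among the members tested. When each library was left out in turn, the log2 fold change of Dusp6 was between -2.56 and -1.94. In mm9 the gene spans chromosome 10 from 98725865 to 98730122 and overlaps no other annotated gene.

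Dusp2, Dusp4 and Dusp5 encode inducible phosphatases of the nucleus, where Dusp5 is selective for ERK and Dusp2 and Dusp4 act on ERK and on other MAP kinases. Dusp5 had 14.4 and 9.53 CPM under GSI and 2.67 and 4.32 CPM upon washout, based on 461, 139, 91 and 58 counts. The conditions did not overlap, but relative to their level the replicates of each were further apart than for Dusp2. Accordingly, the log2 fold change of Dusp5, -1.84, had the largest standard error among the members tested (0.319, adjusted p = 0.0043, same edgeR test). Leaving out GSI replicate 1 gave -1.49, leaving out washout replicate 1 gave -1.48, and it stayed past both thresholds without any single library. Dusp5 lies on chromosome 19 from 53603599 to 53616921 (mm9).

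Dusp2 was the most abundant of the members that fell. Its level was 106 and 93.3 CPM under GSI and 42.4 and 38.02 CPM upon washout, with replicates that lay close together (99.6 ± 8.87 compared with 40.2 ± 3.07 CPM, SD, n = 2 each). Every washout value was less than every GSI value. Dusp2 therefore had a log2 fold change of -1.31 (95% interval -1.58 to -1.03, adjusted p = 0.000467, quasi-likelihood test of edgeR), and it lies on chromosome 2 from 127161895 to 127164112 (mm9). A stricter test, glmTreat, asks whether a change exceeds 1 on the log2 scale rather than 0, and here Dusp6 alone passed (adjusted p = 0.00778), whereas Dusp2 (0.0549) and Dusp5 (0.0776) did not.

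Dusp4, which belongs to the same nuclear group, did not follow Dusp2 and Dusp5. It had 8.94 and 11.8 CPM under GSI and 13.72 and 11.83 CPM upon washout, so that the replicate 2 libraries of both conditions were at nearly the same level. The log2 fold change of Dusp4 was 0.32, with a 95% interval from -0.15 to 0.80 that includes 0 but not a decrease of the size seen for Dusp2 (adjusted p = 0.213, quasi-likelihood test of edgeR). The result depended on the fit: with the replicate number as a block the adjusted p-value of Dusp4 was 0.0456 at 0.36, and with offsets for GC content and gene length it was 0.0488 at 0.57. Without GSI replicate 1 the log2 fold change of Dusp4 was 0.12. Dusp4 lies on chromosome 8 from 35870351 to 35882948 (mm9).

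Dusp10 encodes a phosphatase that acts mainly on JNK and p38 rather than on ERK. It had 173 and 159 CPM under GSI and 216 and 227 CPM upon washout, on 2313 to 7355 counts per library. Both washout libraries were above both GSI libraries, although the increase was small (165.9 ± 10.4 compared with 221.6 ± 7.78 CPM, SD, n = 2 each). The log2 fold change of Dusp10 was 0.42 (95% interval 0.18 to 0.66, adjusted p = 0.014, quasi-likelihood test of edgeR). This call was not stable. It was lost with total-count scaling (0.22, adjusted p = 0.110), without GSI replicate 1 (0.48, adjusted p = 0.0505) and without GSI replicate 2 (0.36, adjusted p = 0.112), although the direction stayed the same. Dusp10 lies on chromosome 1 from 185837181 to 185899515 (mm9), where 1700056E22Rik runs on the other strand inside the gene without overlapping its exons.

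Among the Sprouty genes, which encode inhibitors that act between receptor tyrosine kinases and Raf, only Spry1 was well expressed. Spry1 had 42.0 and 39.4 CPM under GSI and 22.7 and 23.5 CPM upon washout. The replicates nearly coincided and the conditions were clearly apart, with 40.7 ± 1.86 compared with 23.1 ± 0.588 CPM (SD, n = 2 each). The log2 fold change of Spry1 was -0.82 (standard error 0.107, 95% interval -1.08 to -0.56, adjusted p = 0.00155, quasi-likelihood test of edgeR), which is under the threshold of 1 in size. It was -1.02 with total-count scaling, which took it past both thresholds, and -0.53 with these offsets for GC content and length (adjusted p = 0.004, same edgeR test). Spry1 spans chromosome 3 from 37538869 to 37543520 (mm9).

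Spry4 was too low for the main test, with 11 and 4 counts under GSI and 1 and 1 upon washout. In the fit without a filter on low counts it was not called in either direction. Summed over replicates and scaled to the library sizes, Spry4 was 7.64 times as high in GSI as upon washout, with a counting interval from 1.78 to 68.9 that covers counting error only. The direction was that of Spry1, but at this depth the size of the difference is hardly determined. Spry2 had 1 count in GSI replicate 1 and 0 in the other libraries. Spred1 is listed at 0 in every library, which allows up to 0.0881 to 0.223 CPM by counting error, and a listed 0 need not mean that the transcript is missing, since the mode of counting is not known. These genes lie on chromosome 18 from 38745922 to 38760922 (Spry4), chromosome 14 from 106291166 to 106296036 (Spry2) and chromosome 2 from 116947110 to 117008015 (Spred1).

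Spred2, which encodes a Sprouty-related protein that recruits neurofibromin to switch off Ras, was low but measurable. It had 9.75 and 11.4 CPM under GSI and 8.40 and 7.89 CPM upon washout. Both washout values were lower, but the gap was of the size of the spread between the GSI replicates. For Spred2 the log2 fold change was -0.37 (95% interval -0.80 to 0.06, adjusted p = 0.127, quasi-likelihood test of edgeR), and it passed the test only with total-count scaling (-0.57, adjusted p = 0.0354). Spred2 lies on chromosome 11 from 19824378 to 19924029 (mm9).

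**Figure D2:**
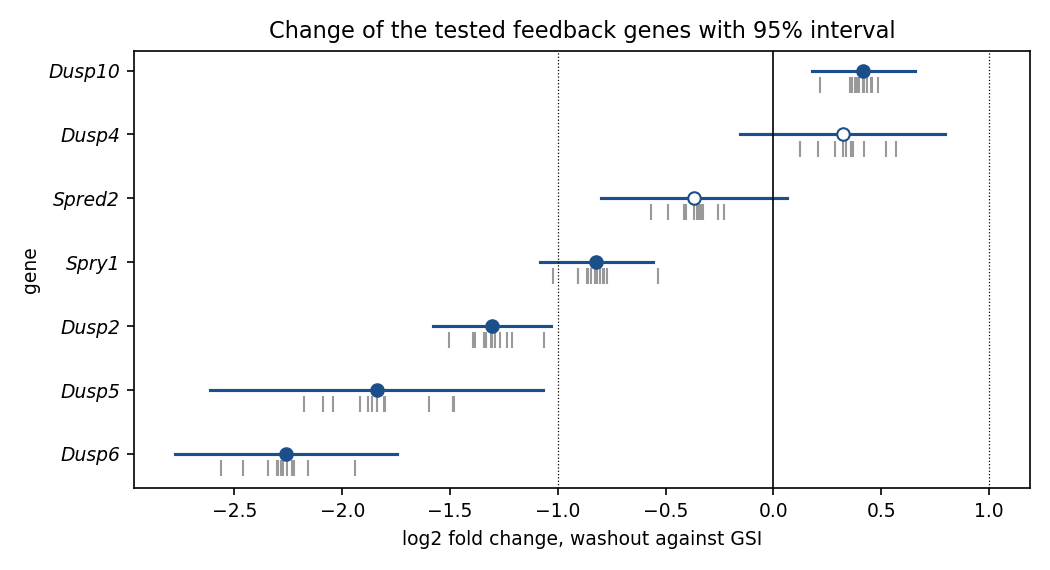
Log2 fold change (washout against GSI) of the 7 tested members, with the 95% interval as a line, filled points for an adjusted p-value under 0.05, dotted lines at the fold threshold and gray ticks for the values under each alternative setting. Dusp2, Dusp5 and Dusp6 lie below -1 under every setting, Spry1 lies between -1.02 and -0.53, and the intervals of Dusp4 and Spred2 include 0.

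Dividing by exon length (RPKM, which is the CPM per kilobase of exon) makes the levels of different members comparable. In GSI, the RPKM of Dusp10 (56.9 and 52.1) and of Dusp2 (52.8 and 46.6) were close, and their ranges overlapped. Which of them was higher depended on the length used: with the longest transcript in place of all exons, Dusp2 (65.4 and 57.7 RPKM) was above Dusp10 (62.0 and 56.8 RPKM). Dusp6 (14.9 and 16.9 RPKM) and Spry1 (14.5 and 13.6 RPKM) followed at a lower level; in replicate 1 they differed by less than the spread between replicates. Dusp5 (5.83 and 3.85 RPKM) and Dusp4 (3.26 and 4.303 RPKM) overlapped, and Spred2 was the lowest of the tested members at 2.11 and 2.48 RPKM. Upon washout this order changed. Dusp10 (71.0 and 74.7 RPKM) was then far above Dusp2 (21.2 and 19.0 RPKM), which was followed by Spry1 at 7.81 and 8.09 RPKM. Dusp4 (5.01 and 4.32 RPKM) was slightly above Dusp6 (2.69 and 4.12 RPKM), and Dusp5 (1.08 and 1.75 RPKM) overlapped with Spred2 (1.82 and 1.71 RPKM) at the low end.

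The make-up of the phosphatase transcripts changed along with these levels. Over the 9 classical MAP kinase phosphatase genes with a single annotated length, which are the 5 Dusp members together with Dusp1, Dusp7, Dusp9 and Dusp16, Dusp10 held 35.2% and 35.5% of the summed RPKM in GSI and 56.3% and 59.0% upon washout. The share of Dusp2 went from 32.7% and 31.7% to 16.77% and 15.002%. By the longest transcript, Dusp2 rather than Dusp10 held the largest share in GSI, and Dusp10 held it upon washout by either length. Dusp6 held 9.22% and 11.5% in GSI and 2.13% and 3.26% upon washout, and Dusp5 held 3.61% and 2.62% compared with 0.857% and 1.38%. Dusp4 was between 2.02% and 3.97% in all libraries. The summed RPKM itself was 161.6 and 146.8 in GSI and 126.1 and 126.5 upon washout. These shares are a description, since shares of 1 sum depend on each other, and with 2 libraries per condition no separate test was run.

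**Figure D3:**
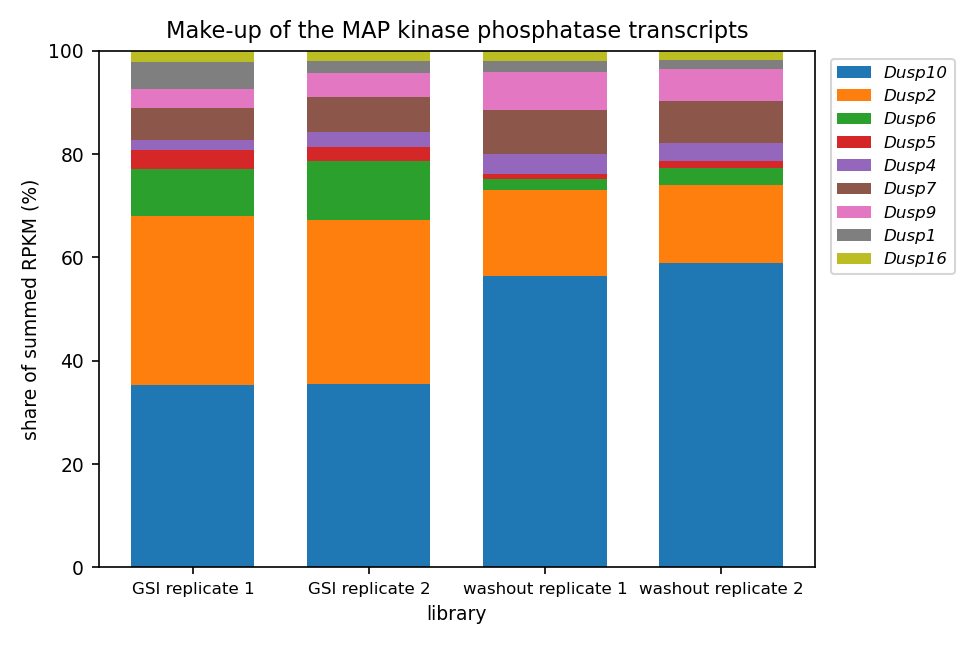
Share (%) of each of 9 MAP kinase phosphatase genes in their summed RPKM, with 1 bar per library. Dusp10 takes 35.2% and 35.5% in GSI and 56.3% and 59.0% upon washout, while the shares of Dusp2, Dusp6 and Dusp5 are smaller in both washout libraries than in both GSI libraries.

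The relatives of the members were described by the same counts. Among 7 other MAP kinase phosphatase, Sprouty and Spred genes, 5 were tested, and 2 fell past both thresholds while 0 rose. Of all genes tested, 11.7% fell and 7.74% rose past both. The median log2 fold change of these relatives was -0.45. Spred3, the third Spred gene, had 15.2 and 13.6 CPM under GSI and 2.06 and 2.98 CPM upon washout, with a log2 fold change of -2.56. This was lower than the value of any member (adjusted p = 0.000568, quasi-likelihood test of edgeR), while Spred2 did not pass the test and Spred1 was listed at 0. Dusp1, an immediate early phosphatase of the nucleus, had 22.6 and 8.91 CPM under GSI and 6.96 and 5.43 CPM upon washout. The log2 fold change of Dusp1 was -1.35 (adjusted p = 0.0368, same edgeR test), but it rested on GSI replicate 1, without which it was -0.51 (adjusted p = 0.216). The call of Dusp1 was also lost without washout replicate 2 (-1.21). With offsets for GC content and length (adjusted p = 0.0510, same edgeR test) and with counts thinned to the smallest library (0.05002) it was lost as well. The highest value in this group was that of Dusp9, a cytoplasmic ERK phosphatase of the same type as Dusp6, with 0.47 (adjusted p = 0.0333, same edgeR test). Its call was lost with DESeq2 (adjusted p = 0.0527), with total-count scaling (0.27) and with counts thinned to the smallest library (0.33). It was also lost without GSI replicate 1 (0.38), GSI replicate 2 (0.54) or washout replicate 1 (0.34).

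The atypical dual-specificity phosphatases, which mostly lack the kinase-binding domain of the classical ones, did not move to 1 side. Of the 7 tested of 14, 1 rose past both thresholds, 1 fell, and the median log2 fold change was 0.02. The shares over all genes tested were 7.74% higher and 11.7% lower. Dusp12 rose from 8.88 and 9.53 CPM to 20.5 and 20.5 CPM (log2 fold change 1.16, and 0.96 with total-count scaling), but its exons overlap Gm9929 on the other strand. Dusp23 fell by 1.82 on the log2 scale at about 1 CPM or less, and its call was lost with DESeq2 (adjusted p = 0.116) and without GSI replicate 1.

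In the cascade from the receptor to ERK, 23 genes were tested. Of these, 2 fell past both thresholds and 0 rose, where 11.7% and 7.74% of all genes tested did so. By the adjusted p-value alone 11 fell and 4 rose, where the shares over all genes tested were 25.4% and 27.0%. Rasgrp1, the exchange factor that activates Ras downstream of the T-cell receptor, had 160 and 137 CPM under GSI and 29.97 and 23.14 CPM upon washout. Rasgrp1 had a log2 fold change of -2.47 (adjusted p = 0.000315, quasi-likelihood test of edgeR), which made it the lowest of the cascade. Pea15a, which encodes a protein that holds ERK in the cytoplasm, fell by 1.23 on the log2 scale, and the highest value was that of Hras (0.47). The median log2 fold change of the cascade was -0.39.

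Of the genes known as outputs of ERK, 11 were tested, of which 8 fell and 0 rose past both thresholds. Over all genes tested, 11.7% fell and 7.74% rose past both. The median log2 fold change of the ERK output genes was -1.39. The transcription factor genes Fos (-3.89), Etv5 (-3.43), Egr1 (-3.21), Junb (-2.09) and Egr2 (-1.39) were downregulated past both thresholds, as were Ier3 (-2.39), Ccnd1 (-1.26) and Phlda1 (-1.14). The call of Egr2, at about 1 CPM or less, was lost with DESeq2 (adjusted p = 0.248), without a filter on low counts (0.053), and without any 1 of the libraries (0.0598 to 0.264), and Phlda1 was -0.87 with offsets for GC content and length. Etv5, an ETS factor gene that is often induced together with Dusp6 and Spry4, went from 103 and 62.1 CPM to 9.11 and 5.73 CPM. Fos differed between the GSI replicates (13.5 and 3.56 CPM). The exons of Egr1 and Ccnd1 overlap those of another gene on the other strand, as do those of Dusp12. The highest value was that of Etv4 (-0.35), at less than 1 CPM and without a call, and its sign was not stable. At an unadjusted p under 0.05, 9 fell and 0 rose. When at least 10 counts were required in every library, which removes low genes from the test, 5 of these genes were left past both thresholds. Immediate early genes were already known to be lower in these libraries when the list was written, so the list is not independent evidence of a direction.

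Genes of the JNK and p38 cascades were also followed, since Dusp10 acts on these kinases. They encode the kinases and not output genes, so they are no counterpart to the ERK output list and do not measure kinase activity. None of the 8 genes tested passed both thresholds with edgeR's quasi-likelihood test. With DESeq2 it was 0 as well. Over all genes tested, 11.7% fell and 7.74% rose past both thresholds, so a count of 0 among 8 genes says little. By edgeR's adjusted p-value alone 1 rose and 0 fell, at an unadjusted p under 0.05 it was 1 in each direction, and the median log2 fold change was 0.05. The values ranged from -0.30 for Mapk9 to 0.34 for Mapk11. Mapk9 had an adjusted p-value of 0.0842, which was 0.00228 with the replicate number as a block, 0.037 with offsets for GC content and length, 0.0177 with total-count scaling (-0.50) and 0.0252 without washout replicate 1 (-0.43).

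**Figure D4:**
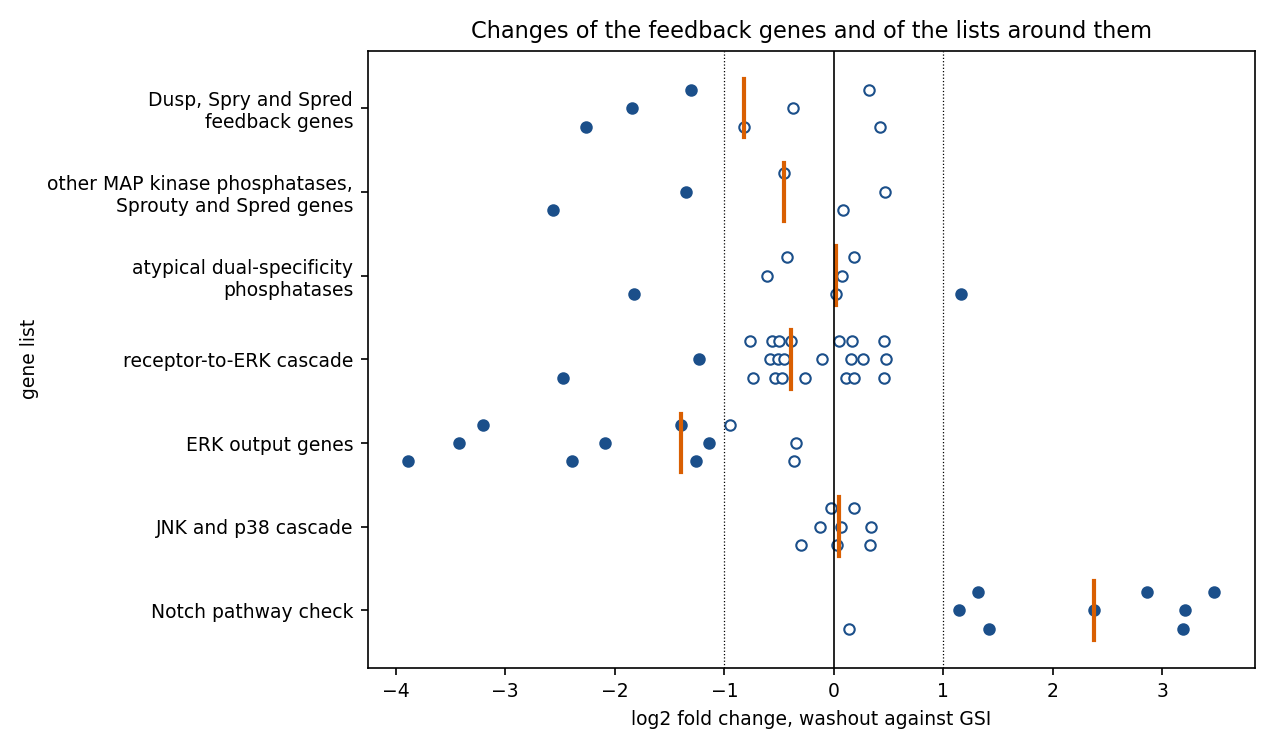
Log2 fold change (washout against GSI) of each tested gene of the members and of 6 surrounding lists, with filled points for genes past both thresholds, orange bars for the median of each list and dotted lines at the fold threshold. The medians of the feedback genes (-0.82) and of the ERK output genes (-1.39) lie below 0. So do those of the other MAP kinase phosphatase, Sprouty and Spred genes (-0.45) and of the receptor-to-ERK cascade (-0.39). Those of the JNK and p38 cascade (0.05) and of the atypical phosphatases (0.02) lie near 0, and that of the Notch pathway check (2.37) lies above.

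Marker genes of other cell types moved along with the members that fell. The summed level of the endothelial markers was 174 to 221 CPM under GSI and 64.5 to 67.1 CPM upon washout, and nearly all of it came from Pecam1, whereas Kdr was at 0 and Cdh5 had 1 count in all. Of 5 mast cell markers in the table, 4 were at 0 in every library, and Cpa3 alone fell from 175.7 and 77.4 CPM to 9.34 and 2.23 CPM. The myeloid markers fell from 38.1 to 48.9 CPM to 4.99 to 5.49 CPM, almost entirely Itgam, with Lyz2 at 0 in every library and Cd14 at 1 count in all. B-cell markers summed to 0.96 CPM or less, erythroid markers to 1.41 CPM or less, and fibroblast markers to between 1.38 and 3.16 CPM. At these low levels the erythroid marker Klf1 (log2 fold change -1.18) and the fibroblast marker Col1a1 (-3.59) also fell past both thresholds, while Col1a2 (-0.53) had no call. Thus single markers moved with Dusp2, Dusp5, Dusp6 and Spry1 while the other defining markers of those cell types were at or near 0, and the part of these markers in the falls was not tested. In bulk libraries like these, fewer cells that express a gene and less RNA of it per cell cannot be told apart.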

How the data were processed

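RNA was measured by RNA-Seq in 4 libraries of Beko cells, 2 of GSI-treated cells and 2 of cells after washout. According to the methods of the study, the authors prepared stranded libraries of total RNA depleted of ribosomal RNA, trimmed the reads, aligned them to mm9 with 1 alignment kept for each read, and tallied the reads on each gene by summarizeOverlaps. The submitters' processing notes name HISAT2 2.2.1 and DESeq2 1.24.0. The deposited table holds raw counts, with no normalization. The strand setting and overlap mode of the counting are not given in the sources used here. All columns of the table were used, and conditions and replicate numbers were taken from the labels.

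Counts were analyzed with edgeR 4.0.16 in R 4.3.3, using filterByExpr with a minimum count of 10, TMM factors (0.930 to 1.08) and the quasi-likelihood test without covariates, with Benjamini-Hochberg adjustment over the 12266 genes tested. The biological coefficient of variation was 0.121. CPM and RPKM were computed from the counts and TMM-scaled library sizes, with exon lengths from GENCODE vM1 (20641 of 24391 symbols matched to a single gene). The limit of detection was set to 3 counts and intervals are at 95%. The scripts were tested on simulated data. Upstream sequences are from RefSeq (GRCm38.p6, 8 of 10 members matched), and the motifs were chosen after the sequences were read.

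Every member was named in the text, and of each list the genes past both thresholds and those with the highest and lowest log2 fold change. Members and lists were chosen with earlier results of these data known. Alternatives were DESeq2 1.42.0, RLE factors or the total count alone, no filter, the replicate number as a block, a minimum of 10 counts in every library, thinning to the smallest library with and without this block, glmTreat, GC content and length offsets (10962 genes), the longest transcript as length, and leaving out each library in turn, where the lone library is assumed to vary like the other condition.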

Additional observations from a re-analysis of the deposited data

How the results depend on the processing

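The falls of Dusp2, Dusp5, Dusp6 and Spry1 kept their direction under every alternative run, and they kept an adjusted p-value under 0.05 in all but glmTreat, which tests against a log2 fold change of 1 and under which 1 member, Dusp6, was called lower. The number of members higher by the adjusted p-value alone was 0 with total-count scaling, 2 (Dusp10 and Dusp4) both with the replicate block and with GC content and length offsets, and 0 to 1 with 1 library left out. The replicate block changed no other call of a member; of the other genes named, it took Mapk9 to an adjusted p-value of 0.00228. Replicate numbers were not taken as pairs, since the labels give no shared origin and there are only 2 of them; the deviations of same-numbered libraries correlated at 0.50. Of 98 comparisons of a member's value with an alternative, 88 stayed on the same side of the threshold with the same direction. Signs reversed for Notch3 (-0.0592 with total-count scaling, -0.047 to 0.35 with 1 library left out), Dusp7 (-0.11 with total-count scaling, against 0.09) and Etv4 (0.036 when thinned, 0.0274 when thinned with the replicate block, -1.07 to 0.47 with 1 library left out). Over all genes, 586 were higher with total-count scaling, and 308 were higher and 501 lower with glmTreat. Under glmTreat, 5 ERK output genes, 1 cascade gene (Rasgrp1) and 5 Notch pathway genes remained called. With the longest transcript in place of the exon union, Dusp2 held 35.8% and 34.9% of the phosphatase RPKM in GSI and Dusp10 33.9% and 34.4%, which turns their order, while upon washout Dusp10 held 55.4% and 58.2% and Dusp2 18.8% and 16.8%. Apart from settings that test fewer genes or libraries, the cause of these changes was not tested. Depth limits Spry2, Spry4 and Spred1, which were left out of the main test. Without a filter on low counts, the members called lower by the adjusted p-value alone were still Dusp2, Dusp5, Dusp6 and Spry1.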
